A study of Mus musculus with 186 samples.

Results

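The synaptic vesicle and release genes described here are 39 genes that were listed by name as a functional group. The list was made with earlier results of these data known. All 39 genes are present in the table of 28338 genes. They comprise 3 synapsins (Syn1, Syn2, Syn3), 7 proteins of the vesicle membrane (Syp, Synpr, Syngr1, Syngr3, Sv2a, Sv2b, Sv2c), 7 calcium sensors and their relatives (Syt1, Syt2, Syt4, Syt5, Syt7, Syt11, Doc2a), 4 SNARE proteins (Vamp1, Vamp2, Snap25, Stx1a) and 2 complexins (Cplx1, Cplx2). The others are 2 factors that take SNARE complexes apart (Nsf, Napb), 3 RAB3 GTPases (Rab3a, Rab3b, Rab3c), 7 active zone proteins (Rims1, Rims2, Rims3, Unc13a, Unc13c, Bsn, Pclo) and 4 vesicular transmitter transporters (Slc17a6, Slc17a7, Slc17a8, Slc32a1).

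Their transcripts were measured by bulk RNA-seq in mouse brain of 3 genotypes: wild type (WT), Akap11 +/- (heterozygous, here HET) and Akap11 -/- (homozygous, here KO). The protein made from Akap11 anchors protein kinase A at particular places in the cell. Tissue came from striatum, thalamus, hippocampus, substantia nigra and the prefrontal and somatosensory cortices at 4 and at 12 weeks of age, in 30 groups of 5 and 6 groups of 6 libraries. The labels name no other allele, driver or agent in any group, and they number the libraries without saying which animal each came from, so the p-values below measure the spread between these libraries. The tissue was cut from frozen brains in a cryostat, and 200 ng of total RNA went into each poly(A) library.

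A synaptic vesicle is filled with transmitter by a vesicular transporter, held in a reserve by synapsins, brought to the active zone by RAB3 and RIM proteins, and made ready for fusion by UNC13 proteins. VAMP on the vesicle then zips together with SNAP25 and syntaxin on the plasma membrane, complexin clamps the assembly, and a synaptotagmin that binds calcium triggers fusion. Most of these steps have several paralogs, and neurons of different brain regions use different sets of them. The transporters also tell neuron classes apart: Slc17a7 (VGLUT1) marks cortical and hippocampal glutamate neurons, Slc17a6 (VGLUT2) subcortical glutamate neurons, Slc17a8 (VGLUT3) small populations such as striatal cholinergic interneurons, and Slc32a1 (VGAT) neurons that release GABA or glycine.

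The 186 libraries, 96 at 4 weeks and 90 at 12 weeks, held 20.8 M to 73.3 M expected counts (median 45.1 M). All 39 genes passed the filter on low counts in every comparison. Akap11 was lower in KO than in WT in all 12 region and age comparisons, with log2 fold changes of -4.30 to -3.65. In HET they were -0.99 to -0.69, and passed in all comparisons but those of hippocampus and substantia nigra at 4 weeks. In the striatum at 4 weeks it lay between 377 and 437 CPM (TMM-scaled counts-per-million) in WT and between 16.9 and 21.7 CPM in KO. Some libraries stood apart from their group at 4 weeks by markers of a neighbouring region, and they are named beside the results they touch. The tissue labels were borne out by the defining markers at 12 weeks: in WT the striatal projection score was 9.16 to 9.58 in striatum, the thalamic score 7.98 to 8.16 in thalamus and the dopamine neuron score 7.47 to 7.91 in substantia nigra, against at most 4.71, 4.32 and 2.09 in the other regions. At 4 weeks the nigral dopamine score ran from 2.96 to 7.27, so markers of the nigra were low in some of those libraries. The nigral library labelled WT 92 also had a low Akap11 level for its label, and 16 libraries of the 4-week set differed from the rest in that at most 5.55% of their values were whole numbers, against at least 17.3% elsewhere.

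In the KO striatum at 12 weeks, Syt5 and Syp rose, Unc13c was lower in every KO library without passing the test, and no other member passed. Syt5 encodes synaptotagmin 5, a calcium-binding member of the synaptotagmin family, and Syp encodes synaptophysin, an abundant protein of the vesicle membrane. These were 2 of the 39 members, both higher, at an adjusted p under 0.05 (edgeR quasi-likelihood test, Benjamini-Hochberg adjustment over all genes tested), against 4.42% of all genes tested in that comparison (1.82% higher, 2.6% lower). The count is therefore close to the background of the region. Over the 39 members the median log2 fold change was -0.02, against 0.01 over all genes, and 7 members had an unadjusted p under 0.05 (4 higher, 3 lower), against 15.9% of all genes. In bulk tissue, a change in the number of cells of a type and a change in RNA per cell cannot be told apart.

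Syt5 stood at 144, 132, 169, 137 and 151 CPM in the 5 WT striata at 12 weeks. It reached 227, 175, 208, 242 and 226 CPM in the 5 KO striata, and every KO library lay above every WT library. The mean rose from 147 ± 14.1 CPM in WT to 216 ± 25.6 CPM in KO (SD, n = 5 each), a log2 fold change of 0.55 ± 0.08 (SE; adjusted p = 0.00074, edgeR). HET libraries held 148 to 167.5 CPM, with a log2 fold change of 0.09 ± 0.08 from WT that did not pass.

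Syp stood at 522, 482.5, 515, 527 and 476 CPM in the 12-week WT striata. In KO the values were 681, 603, 635, 673 and 619 CPM, again all above the highest WT library. The log2 fold change was 0.34 ± 0.05 (adjusted p = 0.00041, edgeR), while HET lay at 480.1 to 511 CPM (-0.03 ± 0.05). Syt5 and Syp both kept their calls when each of the 10 striatal WT and KO libraries was left out in turn, with log2 fold changes of 0.51 to 0.61 and 0.32 to 0.36.

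Unc13c, which encodes the vesicle priming factor MUNC13-3, stood at 178, 228, 196, 242 and 219.5 CPM in the 12-week WT striata and at 174, 172.5, 142, 169.5 and 160.3 CPM in KO. The 2 groups did not overlap, but the log2 fold change of -0.38 ± 0.11 missed the threshold (adjusted p = 0.0638, edgeR). It passed once WT library 1 was left out (adjusted p = 0.0436) and in a fit of WT and KO alone (adjusted p = 0.0301; 3.71% of all genes), and DESeq2 called Unc13c and Sv2c lower beside Syt5 and Syp (4.72% of all genes). Sv2c, a vesicle glycoprotein with high levels in basal ganglia, lay at 240.0 to 299 CPM in WT and 205 to 249 CPM in KO (-0.24 ± 0.08, adjusted p = 0.0954). Rab3c lay at 371 to 501 CPM in WT and 473 to 608 CPM in KO (0.28 ± 0.09, adjusted p = 0.123). In these last 2 genes the groups overlapped.

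At 4 weeks, 4 of the 39 members passed in the KO striatum: Syt5, Vamp1 and Rab3b rose and Unc13c fell, against 3.35% of all genes (1.59% higher, 1.75% lower). A further 13 had an unadjusted p under 0.05 without passing, so that 17 did in all (12 higher, 5 lower), against 17.9% of all genes tested. The median log2 fold change of the members was 0.23, against -0.00 over all genes. Libraries high in cortical markers fell unevenly between the 2 groups at this age, and the values with and without them stand beside the members below.

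Unc13c was lower at 4 weeks as well. WT libraries 42, 92, 142, 913 and 914 held 156, 114, 198, 164 and 183.5 CPM, and KO libraries 12, 51, 161, 163 and 932 held 99.4, 79.4, 45.4, 75.7 and 80.8 CPM. No KO library reached the lowest WT library. The log2 fold change was -1.10 ± 0.19 (adjusted p = 0.00425, edgeR), and HET lay at 113 to 202 CPM (-0.09 ± 0.19).

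Syt5 held 112, 161, 115, 121 and 138 CPM in the same WT libraries and 216, 174, 204, 169 and 175 CPM in the same KO libraries, in the same order. The groups did not overlap, and the log2 fold change of 0.53 ± 0.10 (adjusted p = 0.00792, edgeR) was close to that at 12 weeks. HET lay at 112.5 to 132 CPM (-0.08 ± 0.10). Unc13c and Syt5 kept their calls when each striatal WT and KO library was left out in turn.

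Vamp1 encodes VAMP1 (synaptobrevin 1), the vesicle SNARE that prevails in hindbrain, spinal cord and other fast-firing neurons. It was at 29.6, 41.8, 28.5, 27.5 and 27.6 CPM in the WT striata and 40.1, 69.0, 63.8, 46.4 and 39.95 CPM in the KO striata, so that only the library labelled WT 92 reached the KO range. The log2 fold change was 0.74 ± 0.16 (adjusted p = 0.0162, edgeR). At 12 weeks, WT (35.7 to 43.2 CPM) and KO (33.1 to 42.7 CPM) covered the same range and the fold change was -0.04 ± 0.09. The call was lost without WT 914 (adjusted p = 0.0507).

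Rab3b, a GTPase of the RAB3 family, was at 35.4, 55.8, 36.1, 38.0 and 41.3 CPM in WT and 55.7, 64.7, 90.3, 61.3 and 51.5 CPM in KO at 4 weeks. WT 92 again lay within the KO range and the other 4 WT libraries below it. The log2 fold change of 0.64 ± 0.16 (adjusted p = 0.0425, edgeR) lost its call in 7 of the 10 fits that left out 1 library, with the largest adjusted p, 0.112, without KO 161. Its paralog Rab3c ran from 410.0 to 504 CPM in WT and held 808, 600.4, 567, 485 and 628 CPM in KO (0.43 ± 0.12, adjusted p = 0.0558). Syp was at 600.3 ± 218 CPM in WT and 936 ± 200.0 CPM in KO (SD, n = 5 each) and did not pass (0.64 ± 0.20, adjusted p = 0.0942).

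**Figure D1:**
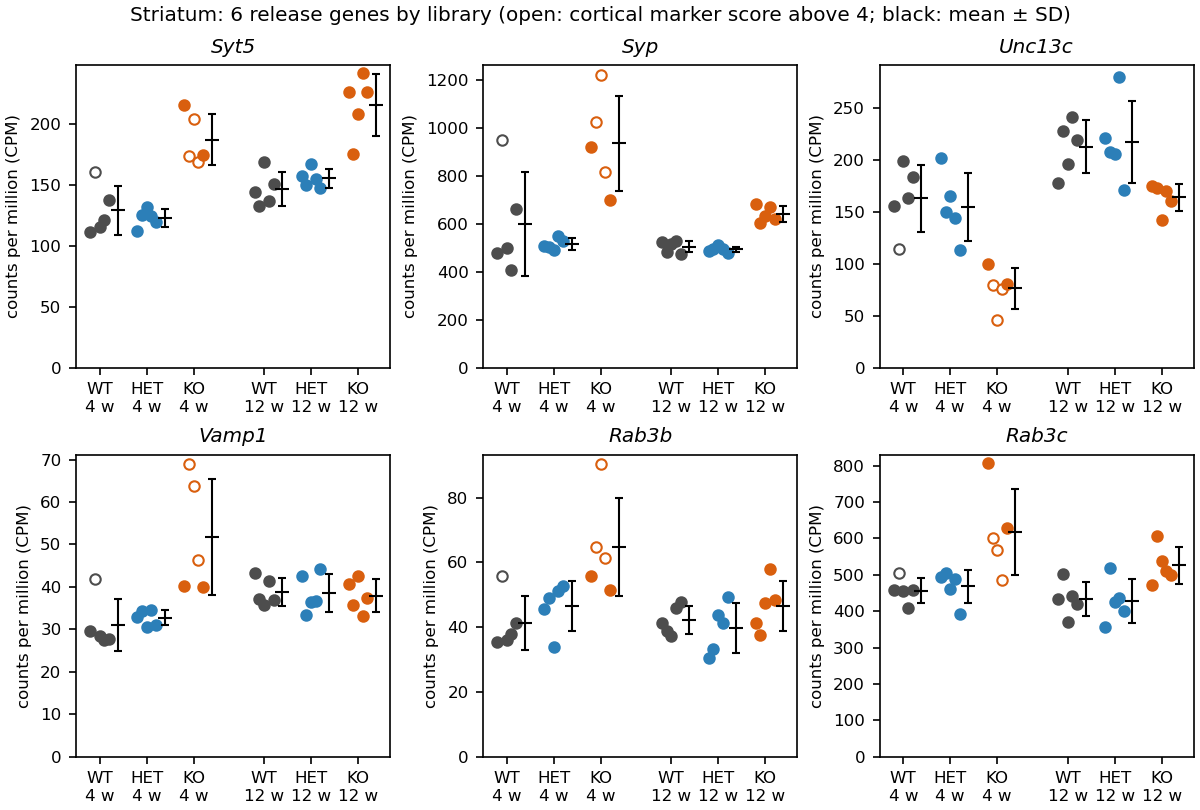
Levels of 6 release genes in the striatum by genotype and age, in CPM on a linear axis from 0; each point is a library, open points are libraries with a cortical marker score above 4, and black bars give the mean ± SD. In KO libraries Syt5 and Unc13c are separated from WT at both ages and Syp at 12 weeks, whereas for Vamp1 and Rab3b the 4-week KO points, 3 of 5 of them open, lie mostly above WT, and the 12-week groups overlap.

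Markers of cortical neurons set 4 striatal libraries of the 4-week set apart. A score over 12 markers of cortical and hippocampal excitatory neurons (mean log2(CPM + 1)) was 4.67 in WT 92, 5.27 in KO 51, 5.53 in KO 161 and 4.80 in KO 163, against at most 3.34 in every other striatal library of that age. In each of these libraries 10 of the 12 markers were above all 11 other libraries, and none was at 0. Slc17a7 was at 674, 936, 1190 and 565 CPM in those 4 libraries, 15.0 CPM or less in the other WT libraries and 4.40 CPM or less in the other KO libraries. Among HET libraries it was at 91.8 CPM in HET 931 and 41.4 CPM in HET 162, and at 7.68 CPM or less in the others. Doc2a (15.7, 27.2, 34.7 and 15.2 CPM) and Stx1a (117, 154, 193 and 100 CPM), which are also high in cortex, followed the same 4 libraries. At 12 weeks the score was between 1.99 and 2.27 in every striatal library.

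Without these 4 libraries, only KO 12 and KO 932 were left in KO, against WT 42, WT 142, WT 913 and WT 914. KO 12 is also among the 16 libraries with few whole values. A fit over the remaining striata called 5 members, against 2.65% of all genes. Syt5 (0.67, adjusted p = 0.00565, edgeR), Vamp1 (0.48, 0.00246), Rab3c (0.67, 0.016) and Slc17a8 were higher, and Unc13c (-0.98, 0.0136) was lower. Rab3b did not pass there (0.49, adjusted p = 0.0927). With the cortical score as a covariate over all libraries, 6 members passed, among them Unc13c (-0.87), Syt5 (0.50), Vamp1 (0.50), Rab3b (0.43) and Rab3c (0.50), against 3.38% of all genes. Leaving out WT 92 alone gave 11 calls (9 higher, 2 lower; 4.89% of all genes), leaving out KO 12 alone 8 (4 higher, 4 lower; 7.31%) and leaving out WT 914 alone 2 (Syt5 and Unc13c; 1.69%). Without the 16 libraries with few whole values 20 members passed (17 higher, 3 lower; 7.37% of all genes). Striatal WT 914, WT 92 and KO 12 are among the 16. That fit therefore kept KO 51, KO 161 and KO 163, but no WT library with a high cortical score. Slc17a7, Doc2a and Stx1a were among its higher calls. In a fit of WT and KO alone 1 member passed (Unc13c; 1.15% of all genes). A score over 12 markers of striatal projection neurons was lowest in KO 51, KO 161 and KO 163, at 8.62, 8.47 and 9.02, against at least 9.21 in the other striata of that age. A score over 10 markers of GABA interneurons also ran higher in KO striata, at 5.66 to 6.19 against 5.28 to 5.86 in WT at 4 weeks and at 5.62 to 5.64 against 5.32 to 5.63 at 12 weeks, with 2 and 1 of the 10 markers above WT in every KO library at the respective age. Their part in the results on these genes was not tested.

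Read by role, the KO striatum changed in few places. None of the 3 synapsins, 2 complexins, 2 SNARE recycling factors or 4 transporters passed at either age. Among the 3 RAB3 GTPases only Rab3b passed, and only at 4 weeks (0.64 ± 0.16, adjusted p = 0.0425, edgeR). Of the 7 vesicle membrane proteins, Syp passed at 12 weeks and none at 4 weeks, where Synpr (-0.47 ± 0.16, adjusted p = 0.118) and Sv2c (-0.34 ± 0.13, adjusted p = 0.158) were lower without passing. Among the 7 calcium sensors only Syt5 passed, at both ages, and Syt1, the main trigger of fast release, had fold changes of 0.26 ± 0.16 and 0.00 ± 0.04. Of the 4 SNARE proteins Vamp1 passed at 4 weeks, and of the 7 active zone proteins Unc13c did, while Unc13a, the main priming factor of forebrain glutamate synapses, had -0.31 ± 0.11 (adjusted p = 0.127) at 4 weeks and -0.15 ± 0.18 at 12 weeks.

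Of the 5 members that passed in the KO striatum at either age, Syp, Vamp1, Rab3b and Unc13c have a promoter in the RefSeq table (GRCm38.p6), and these are shown because the genes changed in the same tissue. Syt5 was not matched. On mm10 (GENCODE M21), the protein-coding genes themselves lie at chr7:4539765-4547541 (Syt5, minus strand), chrX:7638471-7653256 (Syp, plus), chr6:125215551-125245964 (Vamp1, plus), chr4:108879063-108943324 (Rab3b, plus) and chr9:73479422-73968966 (Unc13c, minus). Each sequence runs 5′ to 3′ from 250 bases before to 50 bases after a RefSeq start of the gene, with GC boxes (GGGCGG, or CCGCCC on the other strand) and the core of the cAMP response element, a site through which protein kinase A signalling reaches many promoters (TGACG, or CGTCA on the other strand), in capitals.
Syp, chrX:7638330-7638629, plus strand: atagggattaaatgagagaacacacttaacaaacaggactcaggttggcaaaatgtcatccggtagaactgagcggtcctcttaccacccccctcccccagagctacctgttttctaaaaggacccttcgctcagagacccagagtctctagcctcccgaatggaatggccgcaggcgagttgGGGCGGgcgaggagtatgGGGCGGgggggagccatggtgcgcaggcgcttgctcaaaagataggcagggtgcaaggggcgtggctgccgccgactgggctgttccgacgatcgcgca
Vamp1, chr6:125215331-125215630, plus strand: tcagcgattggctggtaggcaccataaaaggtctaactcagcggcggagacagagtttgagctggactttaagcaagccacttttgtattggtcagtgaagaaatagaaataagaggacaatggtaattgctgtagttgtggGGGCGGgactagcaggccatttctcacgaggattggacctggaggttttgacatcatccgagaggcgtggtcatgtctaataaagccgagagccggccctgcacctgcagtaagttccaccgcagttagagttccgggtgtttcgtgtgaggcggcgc
Rab3b, chr4:108878820-108879119, plus strand: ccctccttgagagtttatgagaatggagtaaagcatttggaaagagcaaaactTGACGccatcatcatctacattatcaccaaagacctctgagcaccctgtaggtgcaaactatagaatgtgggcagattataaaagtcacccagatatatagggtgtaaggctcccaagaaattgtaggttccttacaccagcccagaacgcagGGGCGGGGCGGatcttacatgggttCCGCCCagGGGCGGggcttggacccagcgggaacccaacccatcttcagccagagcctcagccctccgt
Unc13c, chr9:73968988-73969287, minus strand: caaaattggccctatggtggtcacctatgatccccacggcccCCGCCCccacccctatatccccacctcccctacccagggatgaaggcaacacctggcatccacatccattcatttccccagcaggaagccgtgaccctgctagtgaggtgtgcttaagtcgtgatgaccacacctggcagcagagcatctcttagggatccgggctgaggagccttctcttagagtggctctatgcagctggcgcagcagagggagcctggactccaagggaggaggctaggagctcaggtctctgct
Syp holds 2 GC boxes, Vamp1 and Unc13c 1 each, and Rab3b 4 GC boxes and 1 TGACG. Of the 30 members with a promoter in the table, 23 (76.7%) held a GC box, against 49.2% of 17491 protein-coding genes. TGACG on either strand was found in 8 of the 30 (26.7%), against 26.2% of those genes. The full palindrome TGACGTCA, which contains TGACG, was found in Syn1 alone (3.33%), against 2.54%. These are matches of letters in the window and were not tested as sites.

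The wider release machinery outside the 39 genes was read from 66 other genes of the vesicle cycle, all tested in the striatum. At 4 weeks Vamp4 and Slc6a17 were higher in KO and Syt9 was lower (3 of 66, against 3.35% of all genes), and 20 of the 66 had an unadjusted p under 0.05 (16 higher, 4 lower), against 17.9% of all genes. At 12 weeks Syt10, Rims4 and Slc6a17 were higher and Syt9, Syt12, Rph3a, Cltb and Ap2a2 were lower (8 of 66, against 4.42% of all genes). Medians of these 66 genes were 0.09 and -0.01 on the log2 scale. None of them passed in any other region or in HET.

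Outside the striatum no member passed in KO at either age (edgeR), and few genes of any kind did. At 4 weeks 0.00617% of all genes passed in the nigra, 0.0128% in the thalamus, 0.00609% in the hippocampus, 0.0564% in somatosensory cortex and 0.0125% in prefrontal cortex, and at 12 weeks the shares in that order were 0.0364%, 0.0064%, 0.00608%, 0.0252% and 0.0123%. At an unadjusted p under 0.05 the 4-week prefrontal cortex had 10 members (2 higher, 8 lower; 15.1% of all genes), the thalamus 7 (1 higher, 6 lower; 13.9%) and the substantia nigra 5 (1 higher, 4 lower; 6.04%). Somatosensory cortex (4.87% of all genes) and hippocampus (6.62%) had none. At 12 weeks the nigra had 14 such members (5 higher, 9 lower; 6.17% of all genes), the thalamus 6 (7.6%), somatosensory cortex 3 (3.89%), prefrontal cortex 2 (4.84%) and hippocampus 0 (2.91%). Median log2 fold changes of the members at 4 weeks were -0.24 in prefrontal cortex and -0.28 in substantia nigra, against 0.01 and -0.02 over all genes. Prefrontal WT 914 is among the 16 libraries with few whole values, and no prefrontal KO library is. Syp was at 3447 CPM in it, against 1776 to 2212 CPM in the other prefrontal WT libraries and 1594 to 1899 CPM in KO. The prefrontal median without WT 914 is not given here. In the nigra, WT 42, WT 92, KO 44 and KO 91 had dopamine neuron scores of 2.96, 4.25, 3.58 and 4.26, against at least 6.05 in the other libraries of that age, and WT 42 and KO 91 thalamic scores of 7.31 and 6.78. Without these 4 the nigral median was -0.26, and 9 members had an unadjusted p under 0.05 (1 higher, 8 lower; 9.48% of all genes).

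The members nearest to the threshold in these regions, named after their values were seen, were Sv2c in prefrontal cortex and Slc32a1 in thalamus, both at 4 weeks. Sv2c was at 17.0, 23.1, 23.1, 23.9 and 24.2 CPM in the WT cortices and 26.0, 28.1, 28.9, 29.0 and 33.1 CPM in the KO cortices, sorted by level. The groups did not overlap, and the log2 fold change was 0.39 ± 0.09 (adjusted p = 0.171, edgeR). At 12 weeks it was -0.09 ± 0.12. Slc32a1 in the thalamus ran from 2.74 to 228 CPM over 6 WT libraries and from 1.64 to 12.3 CPM over 5 KO libraries (-3.83 ± 0.94, adjusted p = 0.155), with overlap. The 6 WT values were 73.1 CPM in WT 23, 43.4 in WT 42, 33.0 in WT 92, 2.74 in WT 142, 62.2 in WT 913 and 228 in WT 914. Thalamic WT 913 and WT 914 had the lowest thalamic scores of that age (7.18 and 7.37, against at least 8.09 elsewhere), and a score over GABA interneuron markers ran from 4.62 to 4.79 in these 2 libraries and WT 23. That score stood at 4.24 for WT 42, 4.05 for WT 92 and 2.60 for WT 142, against 2.47 to 2.93 in KO. Its part in the result was not tested. Without WT 23, WT 913 and WT 914, Slc32a1 was at -2.35 ± 0.87 (adjusted p = 0.688, edgeR), and 3 members in place of 7 had an unadjusted p under 0.05 in the KO thalamus (7.11% of all genes). By DESeq2 on all libraries, these 3 included, 3 members passed in these regions at 4 weeks: Sv2c higher and Pclo lower in prefrontal cortex (0.603% of all genes) and Slc32a1 lower in thalamus (0.908%).

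**Figure D2:**
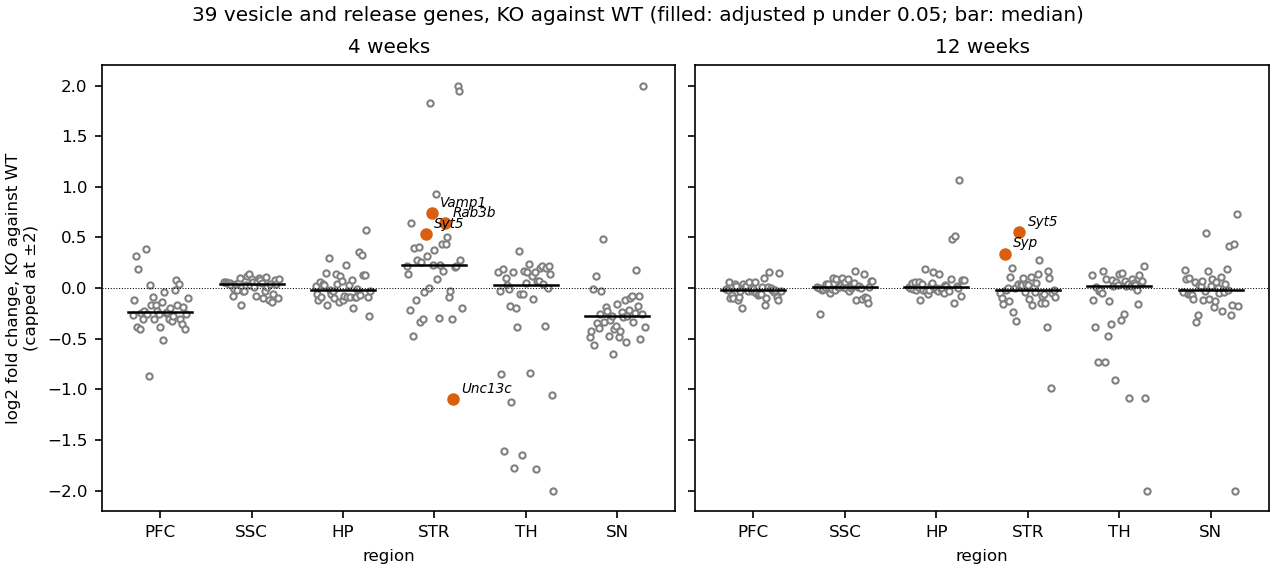
Log2 fold change of KO against WT for each of the 39 genes in 6 regions at 4 weeks (left) and 12 weeks (right); each point is a gene, filled points passed at an adjusted p under 0.05, horizontal bars are medians, and values beyond 2 in size are drawn at 2. Filled points occur only in the striatum: 4 at 4 weeks and 2 at 12 weeks.

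HET libraries had no member past the threshold in any of the 6 regions at either age (edgeR). At 4 weeks 0.00626% of all genes passed in prefrontal and 0.00627% in somatosensory cortex, 0.00648% in striatum and 0.00639% in thalamus, with 0 in the hippocampus and the nigra. At 12 weeks the shares were 0.00613%, 0.00629%, 0.0064% and 0.0064% in the same regions, 0.00608% in the hippocampus and 0.00606% in the nigra. At an unadjusted p under 0.05, 20 members were counted in the 4-week thalamus (13 higher, 7 lower, median 0.20), against 16.3% of all genes there. Without the thalamic libraries WT 913, WT 914 and WT 23 the count was 3 (2 higher, 1 lower), against 3.86% of all genes, with a median of 0.19. The other 4-week counts were 6 in the nigra (8.9% of all genes), 5 in the hippocampus (6.82%), 2 in prefrontal cortex (4.79%), 2 in somatosensory cortex (5.48%) and 1 in the striatum (1.89%). At 12 weeks the thalamus had 6 (9.36%), the hippocampus 2 (2.12%) and the nigra 2 (3.75%), and no member was counted in prefrontal cortex (1.67%), somatosensory cortex (1.65%) or striatum (2.14%). In the 12-week thalamus, Syt1 lay at 1643 to 1725 CPM in WT and 1757 to 1980.0 CPM in HET (0.15, adjusted p = 0.39), and Syn1 at 546 to 632 CPM in WT and 679.8 to 705.5 CPM in HET (0.19, adjusted p = 0.39). Neither pair of groups overlapped, and these 2 genes were chosen after their values were seen. Thalamic HET 11 and HET 93 at 4 weeks are among the 16 libraries with few whole values. Syp was at 2758 and 2825 CPM in them, against 1828 to 1989 CPM in the other HET libraries. Vamp2 was at 1646 and 1622 CPM, against 1079 to 1141 CPM. Their part in the HET results was not tested by DESeq2. DESeq2 called 6 members in HET at 4 weeks, all in the thalamus (1.32% of all genes): Rims3, Syp, Syt1, Syt7 and Vamp2 higher and Slc32a1 lower. That fit included thalamic WT 913, WT 914 and WT 23, without which edgeR gave Slc32a1 in HET -2.47 ± 0.87 (adjusted p = 0.894), against -3.96 ± 0.94 (adjusted p = 0.194) with them.

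Whether the KO effect in the striatum differed from that in the other 5 regions was tested as an interaction in 1 fit over all libraries of an age. At 12 weeks 3 members differed, against 3.11% of all genes: Syp by 0.38 (adjusted p = 7e-07, edgeR), Syt5 by 0.60 (adjusted p = 0.0483) and Rab3c by 0.38 (adjusted p = 0.0317), all higher in the striatum. Syp kept this call in all 10 fits that left out a striatal WT or KO library, while Syt5 lost it in 8 and Rab3c in 6. Syp in KO was within 0.10 of WT on the log2 scale in each other region at 12 weeks.

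At 4 weeks 5 members differed, against 3.52% of all genes: Syp by 0.77, Vamp1 by 0.83, Napb by 0.52, Doc2a by 2.32 and Unc13c by -1.14. Without the libraries set apart by neighbouring-region markers in striatum, thalamus and substantia nigra, Syp (0.77, adjusted p = 0.0463) and Rab3c passed. Only KO 12 and KO 932 were left in the KO striatum there, and 1.42% of all genes passed. The differences of Doc2a (0.30), Napb (0.43), Vamp1 (0.59) and Unc13c (-0.92) did not pass there. Leaving out each of the 10 striatal WT and KO libraries in turn gave between 0 and 12 members, the most without WT 92 (4.9% of all genes). Syp lost its call in 5 of these 10 fits, with an adjusted p of up to 0.106 (edgeR). Libraries of the other 5 regions were not left out 1 at a time. The change of the KO effect from 4 to 12 weeks, tested within each region, passed for no member and for no gene in any region (edgeR). In the striatum the smallest adjusted p among members was 0.434, for Vamp1 (-0.78 ± 0.18). Without the 16 libraries with few whole values 11 members passed there (1 higher, 10 lower), against 1.59% of all genes. At 4 weeks that fit kept the cortex-marked libraries KO 51, KO 161 and KO 163 but not WT 92.

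In WT brain the 4 transporters split the regions. At 12 weeks Slc17a7 was at 1848 ± 85.1 CPM in prefrontal cortex, 1481 ± 152 in hippocampus, 1418 ± 109 in somatosensory cortex and 512 ± 18.1 in thalamus, but 10.7 ± 16.5 in substantia nigra and 2.77 ± 1.42 in striatum (mean ± SD, n = 5 each). Against the mean of the other 5 regions, that was a log2 difference of 3.87 ± 0.39 in prefrontal cortex and -7.39 ± 0.79 in striatum (adjusted p = 8e-10 and 1.8e-09, edgeR). The hippocampal and somatosensory ranges overlapped.

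Slc17a6 had another order, with 494 ± 39.7 CPM in thalamus, 183 ± 42.7 in substantia nigra, 47.6 ± 7.80 in somatosensory cortex, 15.5 ± 9.47 in hippocampus, 8.49 ± 0.85 in prefrontal cortex and 0.492 ± 0.859 in striatum at 12 weeks. The differences were 5.16 ± 0.20 in thalamus and 3.46 ± 0.21 in substantia nigra. Per kilobase of transcript, Slc17a7 and Slc17a6 stood at 176 and 119 CPM per kb in thalamus, and at 634 and 2.05 CPM per kb in prefrontal cortex. Slc17a8 was highest in the striatum, at 28.7 ± 5.76 CPM (3.53 ± 0.30), followed by hippocampus at 8.05 ± 1.42 CPM. Slc32a1 was highest in the striatum, at 331 ± 22.9 CPM (2.23 ± 0.34), then substantia nigra, at 213 ± 35.2 CPM (1.49 ± 0.36). In the thalamus it ran from 0.711 to 83.2 CPM over 5 libraries.

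**Figure D3:**
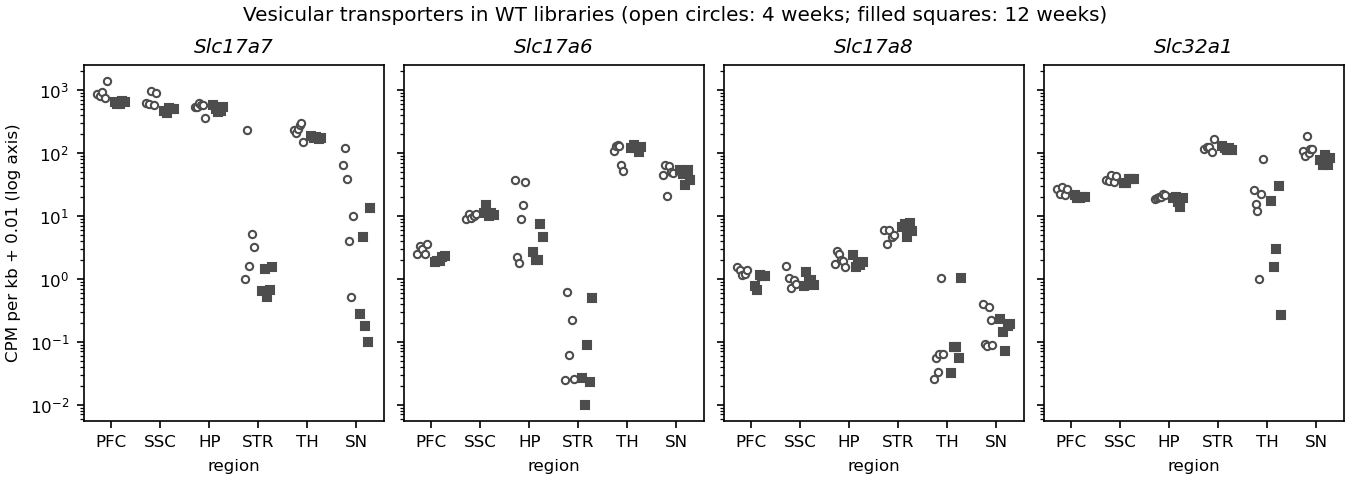
Vesicular transporters in WT libraries by region, as CPM per kilobase of transcript plus 0.01 on a log axis; open circles are 4-week and filled squares 12-week libraries. Slc17a7 is high in cortex and hippocampus, Slc17a6 in thalamus and substantia nigra, and Slc17a8 and Slc32a1 in striatum, and 1 open circle of Slc17a7 in striatum lies far above the others, the 4-week library WT 92.

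Of the 234 pairs of a member and a region, 190 passed against the average of the other 5 regions in WT at 12 weeks (103 higher, 87 lower) and 151 at 4 weeks (75 higher, 76 lower), and every member passed in at least 1 region at each age. Most genes of the brain did as well: the 12-week counts were 21 higher and 8 lower in prefrontal cortex (57% of all genes passed), 24 and 6 in somatosensory cortex (56.4%), 12 and 17 in hippocampus (54.4%), 13 and 23 in striatum (67.3%), 17 and 15 in thalamus (66.9%) and 16 and 18 in substantia nigra (67.8%). At 4 weeks they were 21 and 8 (43%), 20 and 2 (38.4%), 4 and 16 (36.4%), 10 and 19 (52.9%), 9 and 15 (48.1%) and 11 and 16 (59%) in the same order. The members' median log2 difference at 12 weeks was 0.43 in prefrontal cortex, 0.36 in somatosensory cortex and -0.50 in striatum, whereas over all genes it lay between -0.03 and 0.02 in every region.

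Syn1, Syn2 and Syp were highest in prefrontal cortex. Syn1 was at 979 ± 86.8 CPM in prefrontal cortex and 349.9 ± 21.4 in striatum at 12 weeks, and Syn2 at 953 ± 41.3 and 259 ± 18.7. Syp was lowest in striatum, at 505 ± 23.7 CPM (-1.49 ± 0.04), against 1223 ± 31.0 to 1625 ± 46.7 CPM in the other regions. Sv2a, the ubiquitous SV2 form, peaked in substantia nigra at 954 ± 42.1 CPM, Sv2b in prefrontal cortex at 902 ± 81.5 CPM and Sv2c in substantia nigra at 460.1 ± 32.8 CPM (3.46 ± 0.10), with 272 ± 24.5 CPM in striatum and 12.7 ± 3.51 CPM in thalamus. Synpr, a synaptophysin relative, ran from 154 ± 14.1 CPM in striatum to 2.71 ± 0.68 CPM in thalamus (-4.82 ± 0.14).

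Calcium sensors were divided between regions as well. Syt1 ran from 1083 ± 25.5 CPM in striatum to 2149 ± 175 CPM in somatosensory cortex. Syt2, the fast sensor of hindbrain and of parvalbumin interneurons, was at 469 ± 62.8 CPM in substantia nigra (3.01 ± 0.12), 254 ± 23.9 in somatosensory cortex (1.91 ± 0.13) and 11.3 ± 2.80 in prefrontal cortex (-3.47 ± 0.19). Doc2a was at 101 ± 8.94 CPM in prefrontal cortex (3.75 ± 0.18) and 2.04 ± 1.26 in striatum. Syt7, a slow sensor linked to facilitation and asynchronous release, was highest in thalamus at 799 ± 71.3 CPM (1.45 ± 0.04) and lowest in striatum at 157 ± 10.1 CPM. Syt5, which rose in the KO striatum, was at 219 ± 6.20 CPM in WT prefrontal cortex, 147 ± 14.1 in striatum and 25.3 ± 12.8 in thalamus, so that its KO level in the striatum (216 CPM) was close to the WT level of prefrontal cortex.

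SNARE proteins and complexins differed between regions by paralog. Vamp1 was at 700.3 ± 89.4 CPM in substantia nigra, 555 ± 79.4 in thalamus and 423 ± 22.0 in somatosensory cortex, but 67.9 ± 8.45 in prefrontal cortex and 38.9 ± 3.27 in striatum (-2.77 ± 0.09), while Vamp2 stayed between 841 ± 46.8 and 1389 ± 66.3 CPM. Stx1a was cortical, at 403 ± 18.1 and 379 ± 9.19 CPM in the 2 cortices against 83.8 ± 17.0 CPM or less elsewhere. Snap25 in somatosensory cortex, at 2398 CPM per kb, was the highest level per length of any member in any region at 12 weeks. Cplx2 ran from 2475 ± 281 CPM in striatum (1.87 ± 0.14) to 84.2 ± 51.0 in thalamus (-3.98 ± 0.21), and Cplx1 was highest in substantia nigra (1863 ± 134 CPM) and thalamus (1756 ± 163 CPM), where the ranges overlapped.

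Active zone and RAB3 genes also differed by paralog. Unc13c was at 213 ± 25.5 CPM in striatum (2.83 ± 0.13), 142 ± 38.7 in thalamus and 9.64 ± 3.11 in hippocampus (-2.54 ± 0.18), so the gene that was lower in the KO striatum was at its highest there in WT. Unc13a was highest in somatosensory cortex, at 578 ± 44.1 CPM, and lowest in substantia nigra, at 155 ± 18.9 CPM. Rims3 was at 946 ± 80.9 CPM in thalamus (2.25 ± 0.08) and 65.1 ± 15.8 in hippocampus (-2.40 ± 0.11). Rab3c was at 1265 ± 80.04 CPM in substantia nigra and 1243 ± 68.7 in thalamus, with overlap, and Rab3b at 2.98 ± 4.23 CPM in thalamus (-3.79 ± 0.37), far below the 24.7 ± 0.77 to 51.3 ± 5.45 CPM of the other regions.

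**Figure D4:**
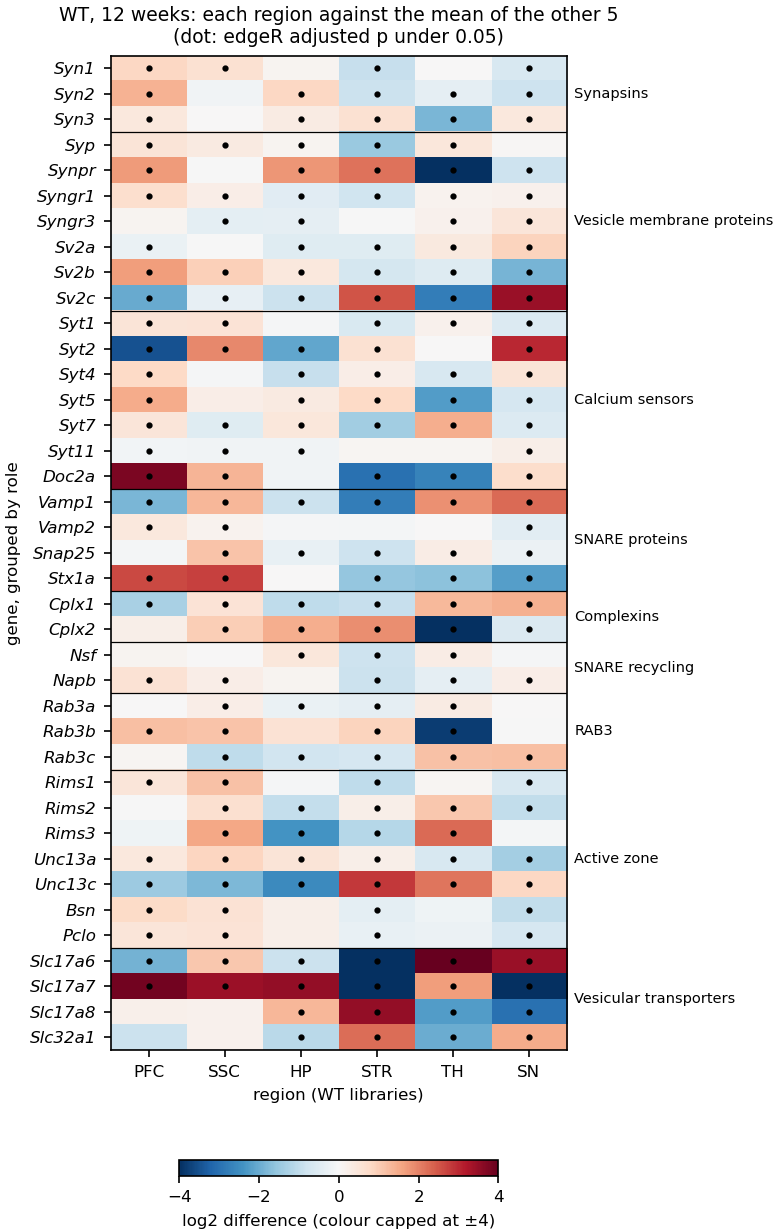
Log2 difference of each WT region from the mean of the other 5 at 12 weeks, for the 39 genes grouped by role (rows) and 6 regions (columns); blue is lower and red higher, and a dot marks an adjusted p under 0.05. Syn1 and Syn2 are red in prefrontal cortex and blue in striatum, and paralogs such as Vamp1 and Vamp2 or Cplx1 and Cplx2 differ in their pattern.

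The pattern was largely held between ages: 147 pairs passed at both, and 146 of them had the same sign. The exception was Slc17a6 in hippocampus, at 1.11 at 4 weeks and -0.86 at 12 weeks. Hippocampal libraries WT 23 and WT 914 of the 4-week set had thalamic marker scores of 6.48 and 6.03, against 3.51 to 4.89 in the other 14 hippocampal libraries of that age, with 10 and 6 of 12 markers above all of those. Without these 2 libraries the 4-week difference of Slc17a6 was -0.13 (adjusted p = 0.861). Slc17a7 in the 4-week striatum, at -2.71 in all libraries, was at -6.67 without the libraries set apart by neighbouring-region markers.

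From 4 to 12 weeks in WT, the cortical release genes fell more often than they rose. In prefrontal cortex 13 members fell and 2 rose, while 19.1% of all genes changed (10.2% lower, 8.89% higher). In somatosensory cortex 14 fell and 5 rose, with 27.1% of all genes changed (13.7% lower, 13.5% higher). The hippocampus had 4 lower and none higher (17.7% of all genes, 10.6% lower and 7.05% higher), and the striatum 5 lower and none higher (18.5%, 9.41% lower and 9.12% higher). The thalamus had 4 lower and 2 higher (22.6%, 12.6% lower and 10% higher), and the nigra 5 lower and 2 higher (18.6%, 11.8% lower and 6.86% higher). Member medians were -0.24 in prefrontal cortex and -0.13 in somatosensory cortex, against 0.02 over all genes in each. All libraries of an age form 1 set, so age and any batch of library making cannot be told apart. Over the 6 regions 56 pairs of a member and a region changed in WT, and 106 did in the mean over the 3 genotypes. That mean draws on more libraries, and its share over all genes is not given here. The 2 counts are therefore not a result about the members.

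The 2 cortices had 12 falling genes in common, out of 13 in prefrontal and 14 in somatosensory cortex. How many falling genes they shared over all genes was not counted, so this overlap is not a result about the members. Syn1, Syp, Syngr1, Syngr3, Sv2a, Syt7, Stx1a, Rims1, Unc13a, Bsn, Slc17a7 and Doc2a fell in each, by 0.24 to 0.56 on the log2 scale in prefrontal cortex and by 0.31 to 0.66 in somatosensory cortex. Slc17a7 fell by 0.56 ± 0.13 and 0.59 ± 0.14, and by 0.39 and 0.30 without the 16 libraries with few whole values, where both falls still passed (adjusted p = 0.00037 and 0.00142). In all libraries Syngr1 fell by 0.55 ± 0.14 in prefrontal cortex and Doc2a by 0.66 ± 0.12 in somatosensory cortex. Without the 16 libraries these falls were 0.39 and 0.64, and both passed. Prefrontal WT 914 and somatosensory WT 142 and WT 914 are among the 16. Somatosensory Syp was at 2359 and 2408 CPM in WT 142 and WT 914. It was at 1537 to 1674 CPM in the other 4-week WT libraries and at 1354 to 1560 CPM at 12 weeks. Falls of the remaining shared genes without the 16 are not given here. Rims3, a short RIM form, rose in both (0.31 ± 0.08 and 0.37 ± 0.13), and Unc13c rose in prefrontal cortex (0.34 ± 0.11), a call lost in 5 of the 10 fits that left out 1 library and without the 16 libraries (0.28, adjusted p = 0.0954).

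Vamp1 had the largest rise in somatosensory cortex. It was at 260.1, 271, 271, 347 and 352.5 CPM in the 4-week and 399, 404, 427, 432 and 453 CPM in the 12-week WT libraries, sorted by level, and the ages did not overlap. The log2 difference was 0.49 ± 0.11 (adjusted p = 0.00079, edgeR). Syt2 (0.31 ± 0.10), Synpr (0.32 ± 0.12) and Snap25 (0.38 ± 0.14) rose there too, and Snap25 lost its call in 8 of the 10 fits that left out 1 library but was at 0.59 (adjusted p = 5.9e-06) without the 16 libraries with few whole values. With RLE scaling and without the low-count filter Snap25 missed the threshold (adjusted p = 0.0705 and 0.0674).

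Several age differences outside the cortex rested on libraries with markers of a neighbouring region. In hippocampus Slc17a6 (-2.17 ± 0.66) and Rims3 (-1.36 ± 0.43) were at -0.91 (adjusted p = 0.389) and -0.35 (adjusted p = 0.61) without WT 23 and WT 914. In striatum Slc17a7 (-5.65 ± 1.5) was at -1.52 (adjusted p = 0.437) and Sv2b (-0.44 ± 0.13) at -0.30 (adjusted p = 0.102) without WT 92, and in thalamus Synpr (-2.33 ± 0.56) and Sv2c (-1.50 ± 0.36) were at -0.59 (adjusted p = 0.318) and -0.21 (adjusted p = 0.658) without WT 913, WT 914 and WT 23. In substantia nigra Sv2c (1.00 ± 0.35) was at 0.59 (adjusted p = 0.181) and Rims3 (-0.70 ± 0.18) at -0.48 (adjusted p = 0.0742) without WT 92 and WT 42, while Syt4 (0.54 ± 0.13 in all libraries) and Slc32a1 (-0.65 ± 0.17 in all libraries) passed with and without them. Without the 16 libraries with few whole values nigral Slc32a1 was at -0.41 (adjusted p = 0.0248), and nigral Syt4 was at 0.36 (adjusted p = 0.0395) without WT 92 and WT 42. Thalamic Snap25 and Rab3c rose by 0.42 each in all libraries, but were at 0.33 (adjusted p = 0.0776) and 0.25 (adjusted p = 0.103) without WT 913, WT 914 and WT 23, so both calls were lost.

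**Figure D5:**
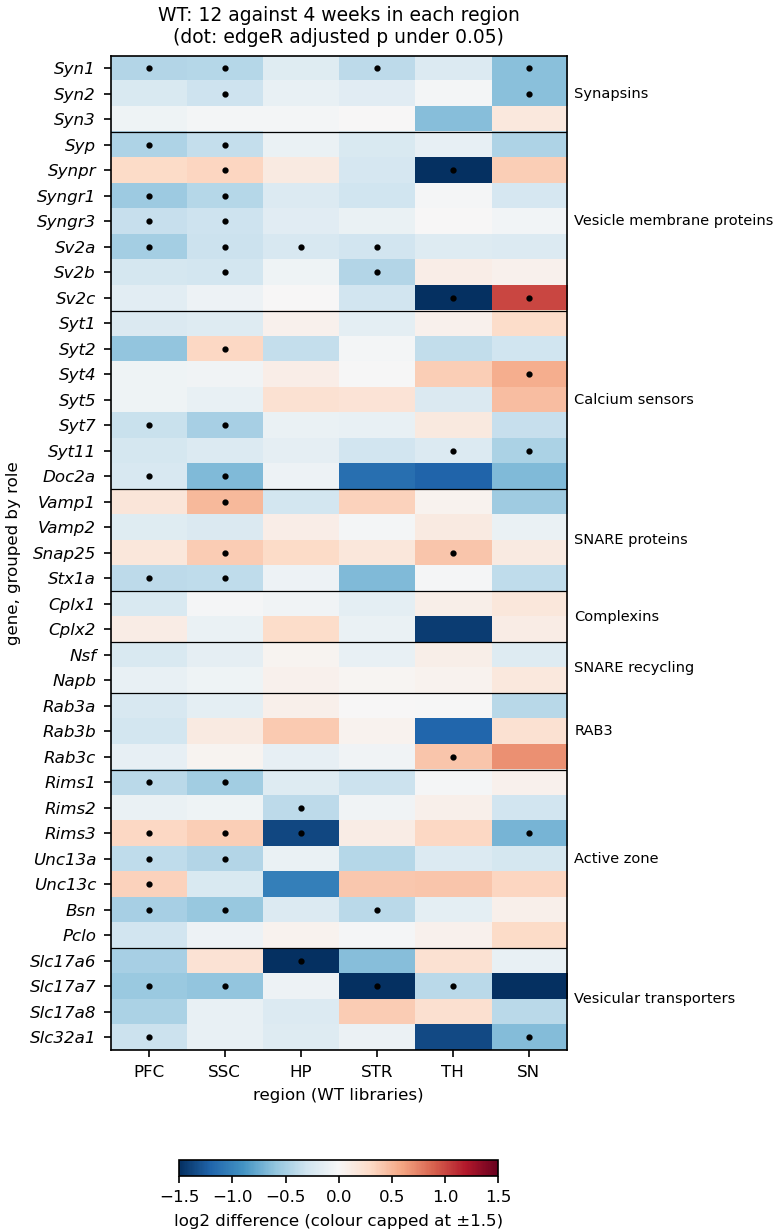
Log2 difference between 12 and 4 weeks in WT for the 39 genes grouped by role (rows) and 6 regions (columns), with the colour capped at 1.5 in either direction; a dot marks an adjusted p under 0.05. The 2 cortical columns share a block of blue dotted cells, from Syn1 to Slc17a7, with Vamp1 as the strongest red dotted cell in somatosensory cortex.

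The balance within 5 pairs of paralogs was compared between ages as log2 ratios per WT library, in 30 exact two-sided permutation tests. In somatosensory cortex Vamp1 over Vamp2 went from -2.19 ± 0.13 to -1.49 ± 0.06 (SD, n = 5 each), Syt2 over Syt1 from -3.56 ± 0.23 to -3.08 ± 0.13 and Slc17a6 over Slc17a7 from -5.66 ± 0.36 to -4.89 ± 0.32, each without overlap of the ages. The exact p of 0.00794 was the smallest that 5 against 5 libraries can give, and adjusted over the 30 tests it was 0.0794, so no ratio passed. Slc17a6 over Slc17a7 in thalamus was -0.74 ± 0.56 at 4 weeks (n = 6) and -0.06 ± 0.11 at 12 weeks (n = 5), without overlap (exact permutation p = 0.013, adjusted p = 0.0952), with WT 913, WT 914 and WT 23 among the 4-week libraries. Cplx1 over Cplx2 and Sv2b over Sv2a overlapped between ages in all 6 regions.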

How the data were processed

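Bulk RNA-seq of 186 mouse brain libraries was analysed. The deposited values are expected counts per gene, which the authors made, per the submitters' processing notes, with Salmon and the mm10 build (annotation and strand setting not given in the sources used here). The expected counts were rounded to whole numbers, scaled by TMM and filtered with filterByExpr, and tested in R 4.3.3 with edgeR 4.0.16 quasi-likelihood fits (limma 3.58.1), with Benjamini-Hochberg adjustment over all genes tested and a threshold of 0.05. Genotype fits held the 3 genotypes of 1 region and age, region fits all WT libraries of an age, and age fits both ages of a region. CPM use TMM library sizes, and log2 ratios of paralogs a pseudocount of 0.5 CPM.

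The 39 members, the marker lists and the 66 other vesicle cycle genes were chosen with earlier results of these data known. Genes named by rule were those called in a KO or HET comparison, the smallest p in striatum up to 5, the transporters, the 2 largest called rises and falls per region and age contrast, and the paralog pairs. Further genes were described by role after their values were seen. Alternatives were DESeq2 1.42.0, RLE scaling, no filter, a surrogate variable (sva 3.50.0), covariates, a replicate block and left-out libraries. Those without the 16 libraries or without hippocampal WT 23 and WT 914 were chosen after seeing the data. Fits without the libraries set apart were also not planned for HET at 4 weeks, the change of the KO effect with age and the 4-week striatum difference. A chi-square test of 390 library pairs within groups gave at least 8.36 per degree of freedom, and no library was counted as a duplicate. The fits were tested on simulated data. Promoters come from RefSeq, GRCm38.p6.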

Additional observations from a re-analysis of the deposited data

Results flagged for a closer look

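In the 4-week striatum, the library labelled WT 92 lay far above the other 4 WT libraries for Rab3b, at 55.8 CPM, and for Vamp1, at 41.8 CPM. Chance flags about 1 in 20 groups, and 2 of the 30 groups looked at were flagged. Both flags fell on WT 92, which was set apart by cortical markers, so they are not independent and cannot be weighed against that rate. By the interaction test in edgeR, 8 pairs of a member and an age had a striatal KO effect unlike the average over the other 5 regions. At 4 weeks the differences on the log2 scale were 0.77 for Syp, 0.83 for Vamp1, -1.14 for Unc13c, 0.52 for Napb and 2.32 for Doc2a. At 12 weeks they were 0.38 for Syp, 0.6 for Syt5 and 0.38 for Rab3c.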

How the results depend on the processing

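The count of members called in the KO striatum at 4 weeks was 4, and it was 1 with only WT and KO in the fit, 20 without the 16 libraries with few whole values, and 2 to 11 when each library was left out in turn. At 12 weeks the count was 2, and it was 4 by DESeq2, 5 with the replicate block (Syt5 and Syp with Unc13c, adjusted p = 0.0318, Sv2c, 0.0123, and Rab3c, 0.0123; 6.35% of all genes) and 2 to 3 with 1 library left out. In the other 5 regions at 4 weeks the count of 0 was 3 by DESeq2 and 0 to 1 with 1 library left out, and in HET at 4 weeks the count of 0 was 6 by DESeq2 and 0 to 1. The 56 age calls were 51 to 59 with 1 library left out. As the mean over the 3 genotypes they were 106, for which no share of all genes is given. The 0 calls for the change of the KO effect with age were 11 without the 16 libraries. For the difference between striatum and the other regions, only striatal WT and KO libraries were left out in turn. The 5 calls at 4 weeks were 2 without the libraries set apart and 0 to 12 with 1 striatal library left out. The 3 calls at 12 weeks were 1 to 2 with 1 striatal library left out. Region calls with 1 library left out were 145 to 162 at 4 weeks and 188 to 196 at 12 weeks. The cause of these shifts was not tested.

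Signs turned in 4 region values of the 4-week WT set, none of which passed where it had turned. Slc17a8 in somatosensory cortex was 0.17, and -0.03 to 0.68 with 1 library left out, the lowest without somatosensory WT 23 and the highest, which passed, without thalamic WT 913. Slc32a1 there was -0.22, and 0.10 without the libraries set apart. Slc17a6 in hippocampus was 1.11, and -0.13 without hippocampal WT 23 and WT 914. Slc17a7 in thalamus was 0.02, and it was -0.01 with RLE scaling, -0.01 by DESeq2, -0.04 without hippocampal WT 23 and WT 914, and -0.10 to 0.85 with 1 library left out, the highest without striatal WT 92.

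Whether libraries of the same number share an animal, litter or day is not stated in the labels. Across genotypes at 12 weeks their deviations correlated with a median of 0.26, 0.22, 0.16, 0.14, 0.22 and 0.07 in PFC, SSC, HP, STR, TH and SN, against -0.06, -0.04, -0.04, -0.10, -0.07 and -0.02 for different numbers. Of 15 pairs per region 12, 10, 13, 9, 12 and 6 were over 0.1, the lowest being -0.28, and 50 of 75 were across WT regions at 12 weeks, so the numbers were not taken as pairs, which would need every pair over 0.1. With the replicate block, region calls were 150 at 4 weeks and 192 at 12 weeks, and the striatum difference gave 4 and 3 calls. Of the values of single genes under the alternatives, 3222 kept their direction and side of the threshold, 140 were no longer past it, 28 came past it and 30 turned sign.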
